A study of Mus musculus with 3 samples.

Results

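The 10 genes described here are immunoglobulin-superfamily receptors of T cells that raise or lower the response to antigen. They are *Tigit*, *Pdcd1* (PD-1), *Ctla4*, *Lag3*, *Havcr2* (TIM-3), *Btla*, *Cd226* (DNAM-1), *Cd96*, *Icos* and *Cd28*. They were chosen by name, as the rows carrying these GENCODE M21 gene names in the gene and transcript tables of all 3 libraries. All 10 were found among 55536 genes, with 28 of 141862 transcripts. The cells were regulatory T cells (Tregs) that had gone through inflammation, from male adult mice of 6 months of the strain Foxp3CreERT2 x Rosa26YFP. In this strain *Foxp3* drives a tamoxifen-inducible Cre recombinase and *Rosa26* holds a YFP reporter, and every library shares these alleles. Polyadenylated RNA of 1 biological replicate was sequenced in 3 technical replicates, called libraries 1, 2 and 3 after their label numbers. How many animals were used, and where in the protocol the replicates were split, is not in the labels. No other cell state is compared, so the values are levels in these cells and differences between these libraries.

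These receptors work in opposed sets that share ligands on antigen-presenting and other cells. CD28 gives the main co-stimulatory signal on binding CD80 and CD86, and CTLA-4 binds the same ligands more tightly and removes them from the presenting cell, a main route of Treg suppression. TIGIT, CD96 and CD226 likewise share the ligand CD155 (*Pvr*), where TIGIT is inhibitory, CD226 is stimulatory, and CD96 has been described in both roles. PD-1, BTLA, LAG-3 and TIM-3 are inhibitory receptors with ligands of their own, and ICOS is a co-stimulatory relative of CD28.

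The cytoplasmic tails of the receptors carry short tyrosine motifs, and their coding sequence is shown because the receptors differ in them. All sequences are from the GENCODE M21 transcripts on mm10. The search covered the last 120 codons of each coding frame. It looked for a tyrosine, any 2 residues and a methionine, the motif that binds PI3-kinase once phosphorylated. *Cd28*, *Ctla4* and *Icos* each had 1 such match, as did 7.54% of 20488 coding genes searched in the same way. The matches are printed in coding direction with 12 bases on each side and the motif codons in capitals.
Cd28-201, chr1:60769681-60769716, plus strand: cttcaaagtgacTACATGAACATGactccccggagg
Ctla4-201, chr1:60914634-60914669, plus strand: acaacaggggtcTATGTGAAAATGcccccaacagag
Icos-201 and Icos-202, chr1:60995548-60995583, plus strand: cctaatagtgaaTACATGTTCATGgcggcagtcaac
The tyrosine was codon 189 of 218 in Cd28-201 and codon 201 of 223 in Ctla4-201. In *Icos* it was codon 181, in a shared exon of both transcripts.

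The immunoreceptor tyrosine-based inhibitory motif (ITIM) was searched as isoleucine, leucine, valine or serine, any residue, tyrosine, any 2 residues, and isoleucine, leucine or valine. Matches were found in *Tigit*, *Pdcd1*, *Btla* and *Cd96*, and in 19.5% of the 20488 genes. The switch motif (ITSM), searched with threonine in the first place, was found in *Pdcd1* and *Btla* and in 3.82% of genes. Motif codons are in capitals below, with 12 bases on each side.
Tigit-201, ITIM, chr16:43649022-43649063, minus strand: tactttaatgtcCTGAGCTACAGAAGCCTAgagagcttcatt
Pdcd1-201, ITIM, chr1:94039476-94039517, minus strand: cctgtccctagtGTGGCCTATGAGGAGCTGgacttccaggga
Pdcd1-201, ITSM, chr1:94039407-94039448, minus strand: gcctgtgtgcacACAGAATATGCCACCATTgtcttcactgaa
Btla-202, ITIM, chr16:45250478-45250519, plus strand: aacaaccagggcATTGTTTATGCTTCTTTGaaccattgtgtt
Btla-202, ITSM, chr16:45250553-45250594, plus strand: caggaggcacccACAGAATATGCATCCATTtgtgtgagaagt
Cd96-201, ITIM, chr16:46035912-46035953, minus strand: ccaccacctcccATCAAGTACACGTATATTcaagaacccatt
Every match lies within 1 coding exon. *Havcr2* and *Lag3* had no match to any of the 3 motifs in this window, and *Cd226* was not searched. A match is a description of the letters and not a measured site.

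The libraries held 11829501, 14136139 and 10667765 estimated counts on genes. Of the 8 Treg markers listed for a check of the label, all 8 were at 1 TPM (transcripts in a fixed total, a level per length) or more in all 3 libraries, a state called detected here. *Foxp3*, which defines the lineage, had 18.0, 14.2 and 16.0 TPM in libraries 1, 2 and 3. All 8 T cell markers were detected too. Markers of other cells were mostly low but uneven, and some exceeded *Foxp3*. The B cell marker *Cd79b* did so in each library, with 18.9, 23.4 and 34.0 TPM. The macrophage and monocyte marker *Lyz2* had 1.45, 31.9 and 11.7 TPM, above *Foxp3* in library 2. The summed level of 8 B cell markers was 28.7, 58.3 and 72.6 TPM in libraries 1, 2 and 3, with 4 of 8 detected and none at 0. The 8 macrophage and monocyte markers summed to 9.93, 53.4 and 23.4 TPM, with 2 of 8 detected and *Fcgr1* at 0 in library 1. The 8 NK cell markers summed to 3.12, 22.6 and 9.05 TPM, with 1 of 8 detected and *Klra8* at 0 in libraries 1 and 2 and *Klra4* and *Fcgr3* in library 3. The 4 plasma cell markers summed to 1.57, 22.5 and 27.7 TPM, with none detected and *Mzb1* and *Tnfrsf17* at 0 in library 1. Of 2 CD8 T cell markers 1 was detected, and they summed to 5.88, 12.4 and 15.2 TPM. The 7 dendritic cell markers summed to 8.25, 8.74 and 8.78 TPM, with 3 detected. In bulk RNA, fewer cells of a type and less RNA per cell cannot be told apart.

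All 10 receptors were detected. *Tigit* had the highest level at 685 ± 25.3 TPM (SD, n = 3), which was at percentile 98.2 of the 12470 genes detected. *Icos* at 351 ± 57.7 TPM and *Pdcd1* at 282 ± 2.97 TPM came next. *Cd28* had 194 ± 2.92, *Cd226* 168 ± 2.49, *Cd96* 152 ± 14.8 and *Ctla4* 124 ± 25.3 TPM. The lowest levels were those of *Btla* at 48.0 ± 6.67, *Havcr2* at 31.2 ± 6.73 and *Lag3* at 21.8 ± 2.92 TPM. *Lag3* still stood at percentile 58.4 of the genes detected. Of the 9 pairs of neighbours in this order, 7 had ranges over the libraries that did not overlap. The ranges of *Cd96* and *Ctla4* overlapped, with *Cd96* higher in 2 of 3 libraries, and so did those of *Havcr2* and *Lag3*, although *Havcr2* was higher in each library. The order depends on length: by TMM-scaled estimated CPM (counts scaled to a fixed library total), with no account of length, *Cd28* was first, followed by *Icos* and *Tigit*. The *Tigit* transcript has 919 bases, against 4347 bases for the coding *Cd28* transcript. In CPM of the deposited whole-number counts *Cd96* was first in each library, with 543, 600 and 614 against 470, 431 and 509 for *Tigit*.

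**Figure D1:**
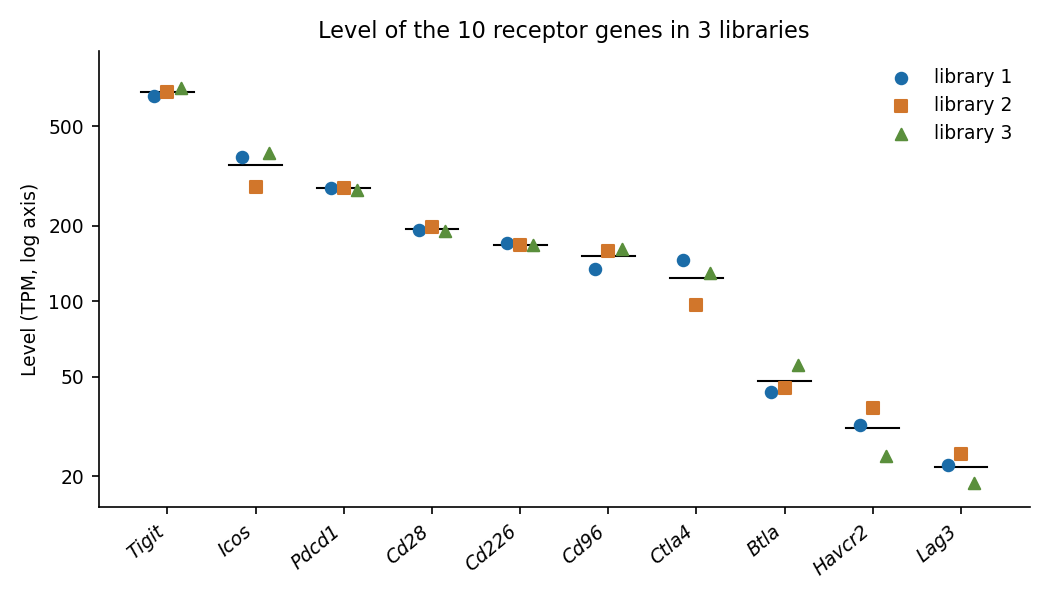
Level in TPM on a log axis of the 10 receptor genes, ordered by mean, with 1 point per library and a bar at the mean of the 3 libraries. *Tigit* lies between 658 and 709 TPM and *Lag3* between 18.7 and 24.5 TPM.

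Summed over genes, the inhibitory receptors (*Tigit*, *Pdcd1*, *Ctla4*, *Lag3*, *Havcr2* and *Btla*) reached 1180, 1170 and 1220 TPM in libraries 1, 2 and 3. The stimulatory receptors (*Cd28*, *Icos* and *Cd226*) reached 740, 649 and 750 TPM. The ratio of the inhibitory to the stimulatory sum was 1.60, 1.81 and 1.62. *Tigit* alone gave 55.6%, 58.5% and 58.3% of the inhibitory sum. With *Tigit* and its counterpart *Cd226* left out, the ratio was 0.926, 1.01 and 0.869. The excess of the inhibitory sum also depended on length scaling. In TMM-scaled CPM the inhibitory sum was 1260, 1260 and 1240 and the stimulatory sum 1410, 1280 and 1390, a ratio of 0.891, 0.983 and 0.896.

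*Tigit* encodes a receptor that binds CD155 and restrains T cells, and marks a strongly suppressive set of Tregs. Its gene lies on the minus strand at chr16:43648867-43664146 and has 1 annotated transcript. It had 658, 686 and 709 TPM in libraries 1, 2 and 3, from 5185, 6524 and 5120 estimated counts. Library 1 was the lowest, and libraries 2 and 3 were close together only after TMM scaling of the counts. After scaling, the highest library exceeded the lowest by 1.07-fold, with 441, 473 and 466 CPM. This spread of 3.66% (coefficient of variation, CV) exceeded the 1.34% that counting gives (Poisson chi-square test, adjusted p = 0.00198). Without library 1 the adjusted p was 0.808. Library 2 was highest under TMM scaling, but library 3 was highest under scaling by total counts and in the whole-number table.

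*Cd226* encodes the stimulatory receptor for the same ligand. The gene lies on the plus strand at chr18:89176967-89272229. Its level was 171, 167 and 167 TPM in libraries 1, 2 and 3, nearly the same in each. Its counts of 2907, 3204 and 2476 gave a chi-square of 6.08 per degree of freedom (adjusted p = 0.00719) at a 1.10-fold range. Without library 1 the adjusted p was 0.551, without library 3 it was 0.058, and in the whole-number table it was 0.89.

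*Cd96* encodes a further CD155 receptor and lies on the minus strand at chr16:46035657-46120251. It had 135, 158 and 162 TPM, from 2602, 3697 and 2864 estimated counts in libraries 1, 2 and 3. Library 1 was low and the other libraries did not separate. The range was 1.21-fold (adjusted p = 7.81e-13), and without library 1 the adjusted p was 0.57. Under total-count scaling library 3, not library 2, was the highest.

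Within each library, *Tigit* exceeded *Cd226* by 1.94, 2.04 and 2.08 on the log2(TPM + 0.1) scale, a mean of 2.02 ± 0.0731 (SD, n = 3) or 4.06-fold. The size of this gap depended on how *Cd226* was counted. It was 0.97 in CPM with no length scaling and 0.80 in whole-number CPM. *Cd226* has 10 annotated transcripts, of which 7 took 5% or more of its TPM. The 2 transcripts with the full frame of 333 codons, Cd226-201 and Cd226-207, together took 34.5%, 32.3% and 31.0%, or 55.0 ± 3.75 TPM (SD, n = 3). Mean shares of 22.6% and 21.4% went to Cd226-205, whose frame has 129 codons, and Cd226-207, with Cd226-207 the larger in library 1. In estimated counts Cd226-207, the longer transcript, exceeded Cd226-205, with 1593 against 230 in library 1. Set against the full-frame *Cd226* transcripts alone, a scale chosen after the data were seen, *Tigit* was higher by 3.64 ± 0.15 on the log2 scale, or 12.4-fold. *Cd96* minus *Cd226* was -0.35, -0.08 and -0.05, a mean of -0.16 ± 0.166 (SD, n = 3), which does not exceed its spread. It changed sign to 0.09 in CPM, 0.19 over coding transcripts and 1.46 against full-frame *Cd226*.

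**Figure D2:**
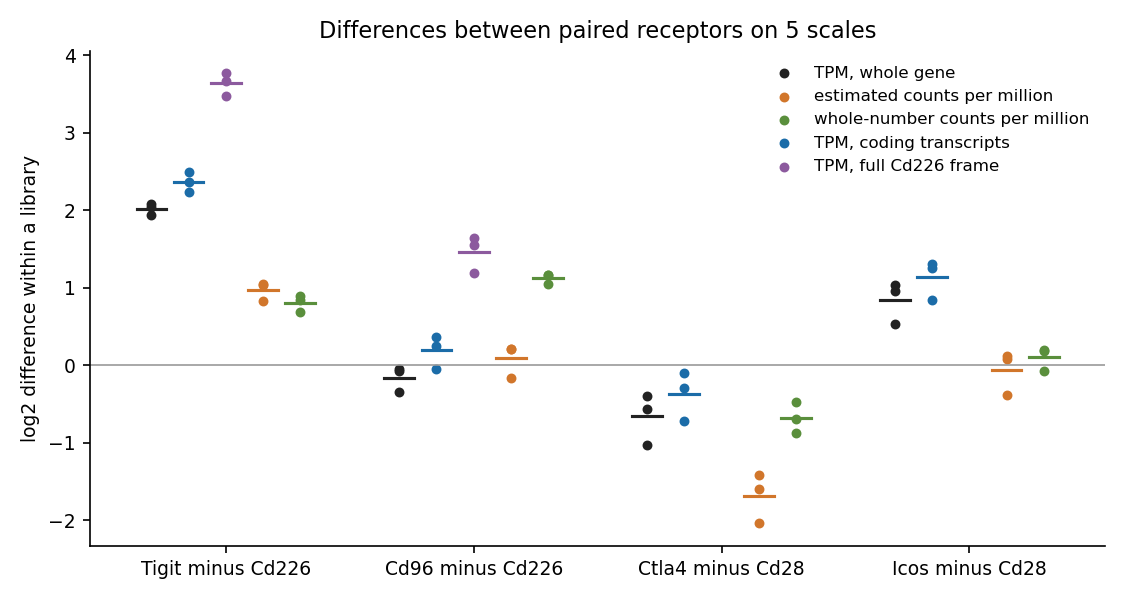
Log2 difference between the first and second gene of 4 receptor pairs, within each library (points) and as a mean (bars), on up to 5 scales. *Tigit* lies above *Cd226* on every scale drawn, from 0.80 to 3.64 in the mean, while *Cd96* minus *Cd226* changes sign with the scale and *Icos* minus *Cd28* lies near 0 without length scaling.

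*Cd28*, *Ctla4* and *Icos* lie next to each other on the plus strand of chromosome 1, within 284 kb at chr1:60716800-61000320. *Cd28* had 193, 197 and 191 TPM in libraries 1, 2 and 3, from 6659, 8187 and 6123 counts. Its libraries lay within 1.06-fold of each other (adjusted p = 0.0017), and the call was lost without library 2 (adjusted p = 0.535) under total-count scaling (adjusted p = 0.307) and in the whole-number table (adjusted p = 0.334). *Cd28* was among the most even of the 10 genes.

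*Ctla4* had 146, 96.4 and 130 TPM, from 2491, 1985 and 2022 counts in libraries 1, 2 and 3. Library 2 was the lowest although it was the deepest library. The range was 1.47-fold, with a CV of 19.0% against 2.15% from counting (chi-square per degree of freedom 84.2, adjusted p = 1.62e-35). *Icos* had 376, 285 and 392 TPM, from 7061, 6247 and 6654 counts, and library 2 was again low while libraries 1 and 3 lay together. Its chi-square per degree of freedom of 178 was the largest of the 10 genes, at a 1.34-fold range (adjusted p = 1.06e-75). Without library 2 the adjusted p of *Icos* was 0.752. Both genes were lowest in library 2 under each scaling and in the whole-number table as well.

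Library 2 was also the lowest for 6 of the 7 Treg markers that were called, whose list summed to 2410, 2060 and 2560 TPM in libraries 1, 2 and 3. Of these, *Il2ra*, the high-affinity chain of the interleukin-2 receptor, had 85.5, 63.3 and 98.1 TPM (adjusted p = 5.33e-51), with library 2 lowest as for *Icos*. Of the Treg markers averaging 1000 counts or more, 6 of 6 were called, beside 71.6% of genes at that depth. At 100 to 1000 counts 1 of 2 was called, beside 45.0%. How many of all called genes were lowest in library 2 was not counted. *Foxp3* itself was not called (adjusted p = 0.117), at 259, 247 and 216 counts. Its level was also lowest in library 2, at a 1.23-fold range. The part of these markers in the values of *Ctla4* and *Icos* was not tested. Of 4769 called genes that averaged at least 100 counts, the nearest to *Icos* in level over the 3 libraries was *Cd6*, a T cell surface receptor. It had 356, 283 and 357 TPM, at a Euclidean distance of 0.157 on the log2(TPM + 0.1) scale. *Clk1* followed at 0.197, *Ddx5* at 0.24, *Psma3* at 0.268 and *Bnip3l* at 0.275, a description over 3 libraries only.

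Within libraries, *Ctla4* minus *Cd28* was -0.40, -1.03 and -0.56 on the log2(TPM + 0.1) scale, a mean of -0.66 ± 0.326 (SD, n = 3). *Ctla4* was lower than *Cd28* in 3 of 3 libraries, and by 1.69 in CPM. The difference shrank over coding transcripts to -0.10, -0.72 and -0.30, a mean of -0.37 ± 0.319 (SD, n = 3). *Icos* minus *Cd28* was 0.96, 0.53 and 1.03, a mean of 0.84 ± 0.271 (SD, n = 3). Over coding transcripts it was 1.14. Without length scaling it had no clear sign, at -0.06 ± 0.285 (SD, n = 3) in CPM and 0.10 ± 0.147 in whole-number CPM. Differences between genes carry no test here, since the 3 libraries are technical replicates.

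*Pdcd1* encodes PD-1, which recruits the phosphatase SHP-2, and lies on the minus strand at chr1:94038305-94052553 with 1 annotated transcript. It had 283, 284 and 279 TPM, from 4818, 5843 and 4351 counts in libraries 1, 2 and 3. This was one of the steadiest levels, at a 1.07-fold range (adjusted p = 0.0109). The call was lost without library 2 (adjusted p = 0.218), without library 3 (0.246), with total-count scaling (0.761) and in the whole-number table (0.301).

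*Havcr2*, on the plus strand at chr11:46454935-46481255, encodes TIM-3, found on activated and exhausted T cells and also on myeloid cells. It had 32.0, 37.4 and 24.0 TPM, from 775, 1092 and 533 counts in libraries 1, 2 and 3. Library 2 was the highest and library 3 the lowest. The range of 1.63-fold was the widest of the 10 genes (chi-square per degree of freedom 43.6, adjusted p = 2.84e-18). Library 2 also held the highest macrophage and monocyte sum, 53.4 TPM against 9.93 and 23.4 TPM in libraries 1 and 3, but that sum was lowest in library 1 and *Havcr2* in library 3. The part of these markers in the level of *Havcr2* was not tested.

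*Lag3*, on the minus strand at chr6:124904361-124911705, encodes a CD4-like receptor for MHC class II. It had 22.2, 24.5 and 18.7 TPM, from 393, 506 and 293 counts, in the same library order as *Havcr2*. The range was 1.37-fold (adjusted p = 0.00035), and without library 3 the adjusted p was 0.352. In the whole-number table the adjusted p was 0.0551.

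*Btla*, on the plus strand at chr16:45224315-45257670, encodes a receptor for HVEM (*Tnfrsf14*) that B cells also express. It had 43.3, 45.1 and 55.6 TPM, from 1133, 1379 and 1336 counts in libraries 1, 2 and 3. Library 3 was high and the other libraries were close. The range was 1.26-fold (adjusted p = 1.74e-08), and without library 3 the adjusted p was 0.575. In the whole-number table it was 0.362. The B cell markers summed to 28.7, 58.3 and 72.6 TPM, lowest in library 1 and highest in library 3 as *Btla* was, and their part in its level was not tested.

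All 10 genes were thus called different between the libraries. This has to be read against the background: 45.7% of the 13970 genes tested were called, and deep genes are called more often. The 8 receptors whose mean count was at least 1000 were all called, beside 71.6% of genes at that depth. The 2 with a mean count from 100 to 1000, *Havcr2* and *Lag3*, were called beside 45.0%. *Havcr2* was the sole receptor called at 1.5-fold or more, which 11.3% of genes at its depth reached and 3.71% of those at 1000 or more did. The median range was 1.23-fold over the 10 receptors, against 1.26-fold over all genes tested and 1.18-fold over genes averaging at least 100 counts. Most of these calls therefore concern small differences at high counts. *Ctla4* and *Havcr2* alone stayed under an adjusted p of 0.05 whichever library was left out.

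The receptors did not follow 1 library. Library 2 was the highest for 6, library 1 for 2 and library 3 for 2, and the lowest was library 3 for 5, library 1 for 3 and library 2 for 2. Over all called genes, 30.7%, 33.9% and 35.4% were highest in libraries 1, 2 and 3, and the shares lowest in each were not counted. With scaling by total counts these shares were 28.4%, 22.8% and 48.8%, and 8 of the 10 receptors were called. Library 2 was then the highest for 4 receptors, library 3 for 4 and library 1 for 2. In the whole-number table library 3 was the highest for 7, library 2 for 2 and library 1 for 1. Which library is highest therefore depends on the scaling and the table for several of the receptors.

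**Figure D3:**
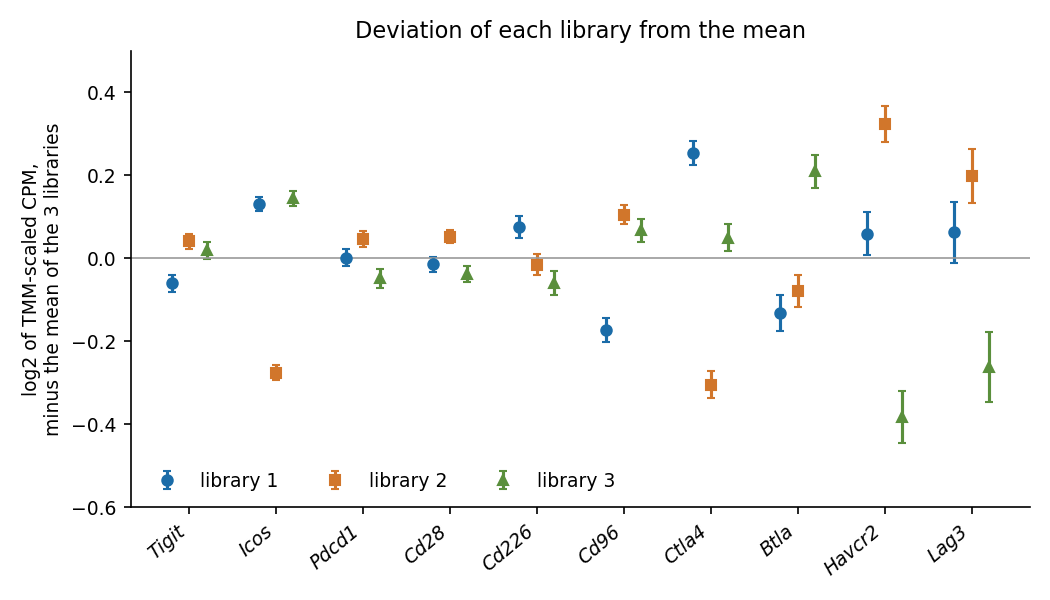
Log2 of TMM-scaled CPM of each receptor gene in each library, minus the mean of the 3 libraries; bars are 1 standard error from counting alone. Library 2 (squares) is below the other libraries for *Icos* and *Ctla4* and above them for *Havcr2*, while *Pdcd1* and *Cd28* stay near 0.

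Transcript use was simple in most of the receptors. *Tigit*, *Pdcd1* and *Cd96* have 1 annotated transcript each, and in *Ctla4*, *Lag3* and *Havcr2* 1 transcript took 95% or more of the TPM. Of the 28 transcripts, 5 were at 0 in all libraries. Protein-coding transcripts took 78.8 ± 3.24% (SD, n = 3) of the TPM of *Cd226* and 81.5 ± 1.16% of that of *Cd28*, and 97.4% or more in each of the other receptors. In *Cd226*, nonsense-mediated decay transcripts took 8.40% (Cd226-210) and 8.23% (Cd226-203), while coding fragments with an incomplete frame took 12.9% (Cd226-208) and 10.5% (Cd226-209). Cd226-202 and Cd226-206, both annotated as coding, were listed at 0.

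**Figure D4:**
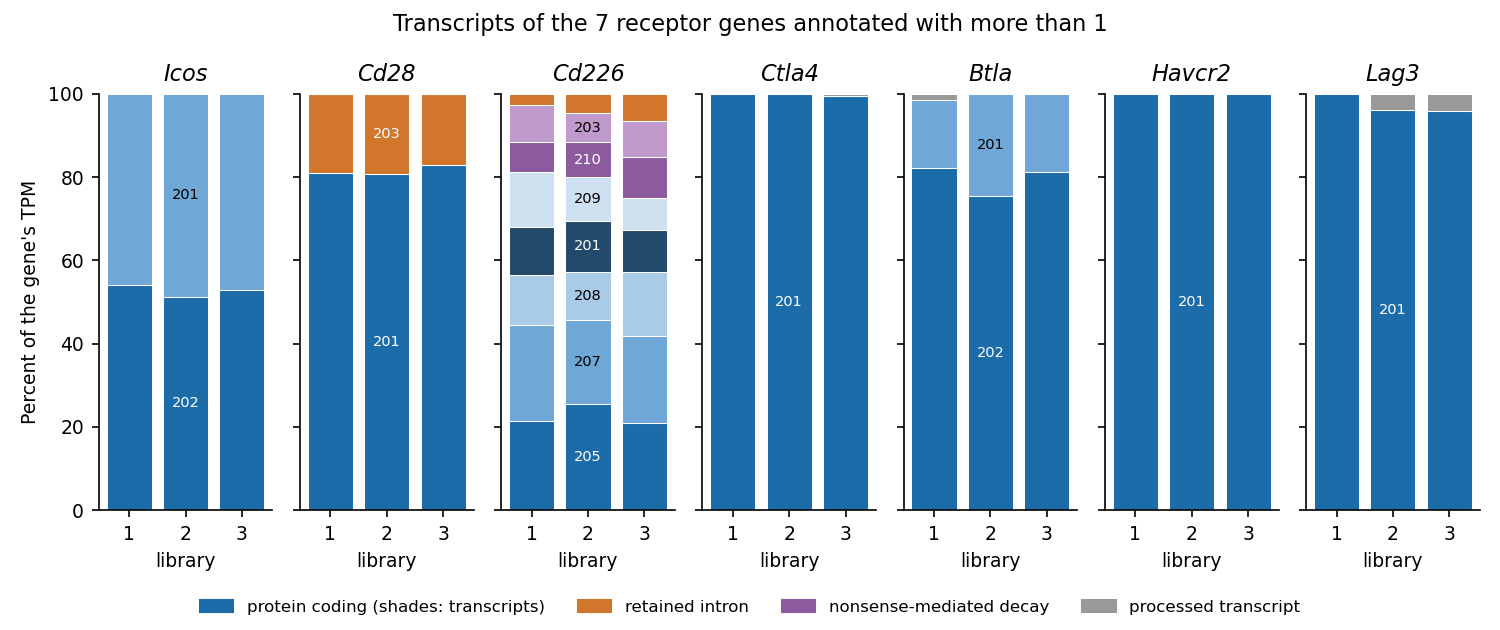
Percent of each gene's TPM taken by its transcripts in each library, for the 7 receptor genes annotated with more than 1 transcript; blue shades are coding, purple nonsense-mediated decay, orange retained intron and grey processed transcripts. *Cd226* is split among many transcripts, *Icos* nearly evenly between 2, and *Ctla4* and *Havcr2* come from 1.

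A *Ctla4* transcript that skips exon 3 loses the exon that codes the membrane span and is known to give a soluble CTLA-4. Both junctions are shown, since the choice between them decides which product is made. Exon 2 is in lower case and the next exon in capitals, 30 bases of each.
Ctla4-201, exon 2 to 3, chr1:60912741-60912770 and chr1:60913219-60913248, plus strand: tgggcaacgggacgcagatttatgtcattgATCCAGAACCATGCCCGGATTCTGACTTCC
Ctla4-202, exon 2 to 4, chr1:60912741-60912770 and chr1:60914613-60914642, plus strand: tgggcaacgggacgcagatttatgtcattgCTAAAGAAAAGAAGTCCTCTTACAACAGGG
Ctla4-201, with exon 3, took 99.8% of the *Ctla4* TPM at 146, 96.4 and 129 TPM in libraries 1, 2 and 3. Ctla4-202, with 174 codons against 223 and no match to the PI3-kinase motif, was listed at 0 in each. The upper bounds of the authors' credibility intervals for it were 3.89, 3.17 and 5.47 TPM, so a low level of this form was not detectable. These intervals belong to a posterior mean that runs below the deposited TPM: that of Ctla4-201 in library 1 was 119 to 129 TPM, beside a TPM of 146. The third transcript, Ctla4-203, is non-coding and took 0.17%.

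*Icos* was the one receptor with a near-even split between coding forms. Both share exon 4 and differ in the end of the tail. In Icos-202 the frame ends in exon 5, and in Icos-201 it runs on into the retained intron. The last 30 shared bases are in lower case and the bases coding the distinct end, with the stop codon, are in capitals.
Icos-202, chr1:60995579-60995608 and chr1:60997701-60997714, plus strand: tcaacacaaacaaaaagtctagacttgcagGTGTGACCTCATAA
Icos-201, chr1:60995579-60995608 and chr1:60995609-60995691, plus strand: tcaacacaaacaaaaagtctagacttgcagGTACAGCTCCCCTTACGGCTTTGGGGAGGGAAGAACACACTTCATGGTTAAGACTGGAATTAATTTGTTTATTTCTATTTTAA
Icos-201, with 223 codons, had 172, 139 and 185 TPM in libraries 1, 2 and 3. Icos-202, with 200 codons, had 203, 146 and 207 TPM. Icos-201 thus took 47.2 ± 1.41% (SD, n = 3) of the gene's TPM, and both forms were lowest in library 2. In counts the split was far from even, with 1187, 1152 and 1167 for Icos-201 against 5874, 5095 and 5487 for Icos-202. The transcripts have 810 and 3241 bases. They share 621 bases, with 189 bases found only in Icos-201 and 2620 only in Icos-202, so the share of Icos-201 rests on a short stretch.

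*Btla* has a pair of coding transcripts that differ by 3 bases at the start of exon 4, in the length of the 3′ end and slightly in the start of exon 1. Exon 3 is in lower case and exon 4 in capitals.
Btla-202, chr16:45242712-45242741 and chr16:45244156-45244185, plus strand: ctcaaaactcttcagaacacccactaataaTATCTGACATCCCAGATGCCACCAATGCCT
Btla-201, chr16:45242712-45242741 and chr16:45244153-45244182, plus strand: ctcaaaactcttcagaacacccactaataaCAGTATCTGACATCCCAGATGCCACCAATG
Btla-202, with 305 codons, took 79.6 ± 3.65% (SD, n = 3) and Btla-201, with 306 codons, took 19.9 ± 4.23%. The levels of Btla-202 were 35.6, 34.1 and 45.2 TPM and those of Btla-201 were 7.06, 11.1 and 10.4 TPM. Since 1656 bases are found only in Btla-202 and 3 only in Btla-201, the split reflects all these differences together.

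*Cd28* gave a retained-intron form, Cd28-203, in which exon 2 runs on into intron 2. Exon 2, which carries most of the extracellular domain, is in lower case. Capitals mark the intron in Cd28-203 and exon 3 in Cd28-201.
Cd28-203, chr1:60763306-60763335 and chr1:60763336-60763365, plus strand: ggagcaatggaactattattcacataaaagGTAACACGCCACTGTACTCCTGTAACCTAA
Cd28-201, chr1:60763306-60763335 and chr1:60765277-60765306, plus strand: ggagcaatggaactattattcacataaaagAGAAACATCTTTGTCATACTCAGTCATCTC
Cd28-203 had 37.0, 37.8 and 32.8 TPM in libraries 1, 2 and 3, or 18.5 ± 1.16% (SD, n = 3) of the gene's TPM. The coding Cd28-201 had 156, 159 and 158 TPM. By estimated counts the coding share was 91.6%, since Cd28-203 is shorter. The third transcript, Cd28-202, was at 0. *Havcr2* resembled *Ctla4*: its second coding transcript, Havcr2-202, which has 232 codons against 281, was listed at 0 in each library, with upper credibility bounds of 2.71, 2.02 and 1.73 TPM.

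**Figure D5:**
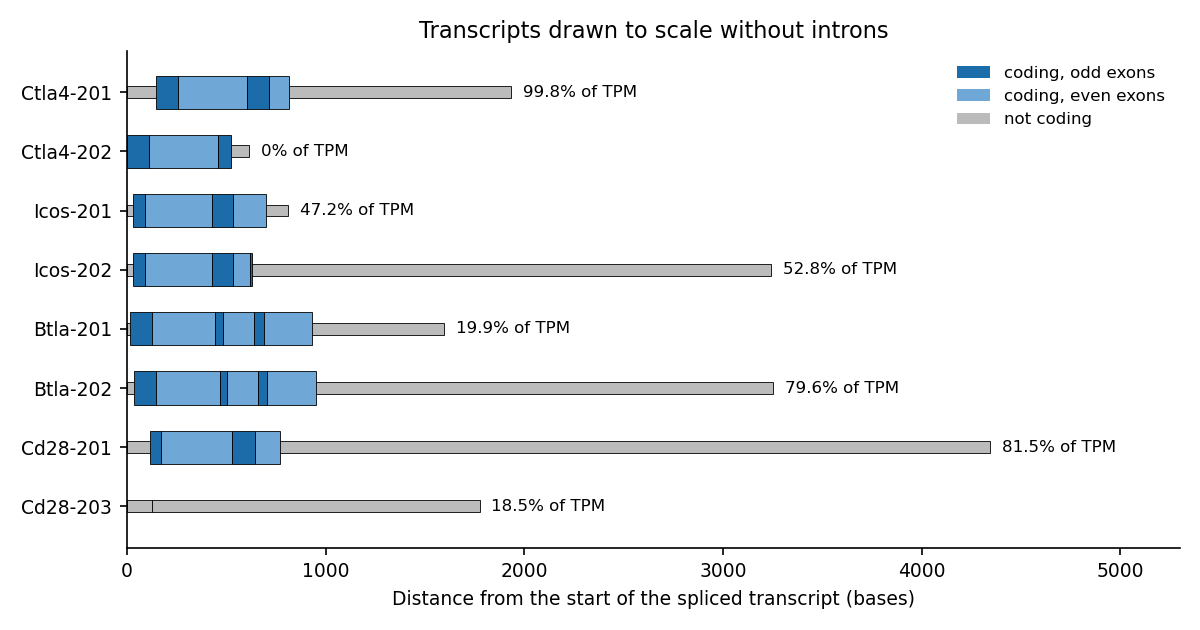
Transcripts of *Ctla4*, *Icos*, *Btla* and *Cd28* drawn to scale without introns, in bases from the start of each, with coding exons in alternating blues and the mean share of the gene's TPM at the right. Icos-202 and Btla-202 have much longer 3′ ends than Icos-201 and Btla-201, and Ctla4-202 is listed at 0.

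Of 18 genes on a list of ligands of these receptors, 13 were detected and 9 of the 13 tested were called different, 6 of them at 1.5-fold or more, with a median range of 1.37-fold. Of the ligands averaging 100 to 1000 counts, 6 of 8 were called, beside 45.0% of genes at that depth, and of those at 1000 or more 2 of 3, beside 71.6%. Over all genes at these depths, 11.3% and 3.71% were called at 1.5-fold or more. In the lists, fold ranges are those of TMM-scaled CPM and can differ from those of the TPM printed with them. The highest levels were those of *Hmgb1*, a nuclear protein and TIM-3 ligand, at 463 ± 48.1 TPM (SD, n = 3). *Lgals3*, a lectin that binds LAG-3, had 153, 155 and 89.2 TPM in libraries 1, 2 and 3, low in library 3 (1.81-fold, adjusted p = 4.57e-45). *Lgals9*, a TIM-3 ligand, had 132, 132 and 128 TPM and was not called (adjusted p = 0.137). The class II genes *H2-Ab1*, at 12.6, 60.6 and 45.9 TPM, and *H2-Aa*, at 8.19, 59.8 and 45.2 TPM, were low in library 1, by 4.85-fold and 7.60-fold from the highest library. These are ligand genes of LAG-3 made chiefly by antigen-presenting cells. The B cell marker sum (28.7, 58.3 and 72.6 TPM) was likewise lowest in library 1, and the macrophage and monocyte sum (9.93, 53.4 and 23.4 TPM) followed the same order of libraries as both genes. The part of these markers was not tested.

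*Cd86*, a ligand of CD28 and CTLA-4, had 14.9, 25.2 and 25.4 TPM, low in library 1 (1.65-fold, adjusted p = 9.58e-12). *Icosl*, the ICOS ligand, had 4.87, 6.17 and 10.7 TPM, highest in library 3 (2.02-fold, adjusted p = 1.54e-09). *Nectin1* had 1.38, 2.07 and 1.54 TPM from 70, 127 and 63 counts (1.60-fold, adjusted p = 0.00382). It averaged under 100 counts, a depth at which the share of all genes called was not counted. *Pvr*, which encodes the CD155 shared by TIGIT, CD96 and CD226, had 13.5, 11.3 and 12.8 TPM and was not called (adjusted p = 0.355). The other nectins *Nectin2*, *Nectin3* and *Nectin4*, and the TIM-3 ligand *Ceacam1*, were under 1 TPM in every library.

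All 26 listed partners in signalling and trafficking were detected, and 15 of the 26 tested were called, none at 1.5-fold or more, with a median range of 1.12-fold. Those called were 15 of the 18 partners averaging 1000 counts or more, beside 71.6% of genes at that depth, and 0 of the 8 with 100 to 1000, beside 45.0%. *Lck*, the kinase that phosphorylates receptor tails, had 1160, 1150 and 1000 TPM in libraries 1, 2 and 3 (1.17-fold, adjusted p = 5.31e-52). *Ap2m1*, the clathrin adaptor subunit that binds the CTLA-4 tail for uptake, had 458, 445 and 438 TPM (1.10-fold, adjusted p = 4.36e-07). *Rab11a*, a recycling-endosome GTPase, had 245, 247 and 245 TPM and was not called (adjusted p = 0.43). *Inpp5d*, the phosphatase SHIP-1, had 112, 98.7 and 119 TPM (1.10-fold, adjusted p = 0.00469). Library 3 was the lowest for 11 of the 15 called, but how many of all called genes were lowest there was not counted.

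Of 14 further immunoglobulin-domain receptors and relatives, 9 were detected, and 8 of the 10 tested were called, with a median range of 1.28-fold. At 1000 counts or more 3 of 3 were called, beside 71.6% of genes at that depth, and at 100 to 1000 counts 4 of 6, beside 45.0%. *Cd2*, an adhesion receptor of T cells, had 1050 ± 29.8 TPM (SD, n = 3), *Vsir* (VISTA) 166 ± 13.8, *Cd200* 68.1 ± 13.6 and *Cd200r1* 65.4 ± 7.05 TPM. The 4 called at 1.5-fold or more were all highest in library 2 and lowest in library 1. Of all genes averaging 100 to 1000 counts, 11.3% were called at such a range. *Cd160*, a further HVEM receptor, had 36.6, 59.7 and 44.2 TPM (1.70-fold, adjusted p = 7.72e-16). *Crtam*, found on cytotoxic T and NK cells, had 4.30, 16.9 and 5.81 TPM (3.72-fold, adjusted p = 1.26e-41). *Lair1*, a collagen receptor, had 7.15, 13.1 and 9.68 TPM (1.77-fold, adjusted p = 2.74e-07). *Cd244a*, known from NK cells, had 0.41, 1.24 and 1.07 TPM from only 7, 29 and 17 counts (3.53-fold, adjusted p = 0.0176). The share of all genes called at under 100 counts was not counted. The NK cell marker sum was also highest in library 2 and lowest in library 1, with 3.12, 22.6 and 9.05 TPM. Most of it in library 2 came from *Tyrobp* at 11.9 TPM and *Eomes* at 8.63 TPM. These genes had the order of the sum, but *Klrb1c*, the other of the 3 NK cell markers called, did not. It had 0.56, 0.26 and 1.67 TPM, lowest in library 2. The markers too low to be tested had no common order, with *Ncr1* highest in library 1 and *Klra8* in library 3. The part of the NK cell markers was not tested. *Havcr1*, *Timd4* and *Cd276* were under 1 TPM in every library, and *Vtcn1* had 0 counts in each.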

How the data were processed

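The 3 libraries are technical replicates of 1 biological replicate. The authors deposited estimated counts per gene and transcript on mm10 and GENCODE M21, with a posterior SD of each count as a signal in reads, per the file headers. The deposited TPM values and the percent of the gene's TPM per transcript were made by the authors, per the file headers. A whole-number count per gene on GENCODE M4 was also deposited. The sources used here do not name the aligner, tools or strand setting. Reads could be split between overlapping genes of the same strand, *Rpl18-ps1* in *Ctla4* (58, 53 and 24 counts in libraries 1, 2 and 3) and *Gm37039* in *Icos* (76, 82 and 91).

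Estimated counts were rounded. With 1 group edgeR's quasi-likelihood test cannot be run. Each of 13970 genes, those averaging at least 10 counts, was tested for differences between libraries by a Poisson chi-square for homogeneity on TMM sizes (edgeR 4.0.16), Benjamini-Hochberg adjusted over all genes, called under 0.05. TMM factors were 0.994, 0.976 and 1.03. Reads are treated as independent, so p-values measure only the spread between these libraries. The test was checked on counts simulated with Poisson spread and the same TMM sizes. Such counts cannot show how it behaves under spread beyond counting. Pairs were compared as log2(TPM + 0.1), which understates differences of low genes.

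Members and lists were chosen with earlier results of these data known. Of each list, the text names the 4 genes with the highest mean TPM, those called at 1.5-fold or more, and up to 4 under 1 TPM in every library. *Pvr* is named besides, as the ligand of 3 of the receptors. The transcript motif search used the coding frames of GENCODE M21 transcripts. Alternatives were DESeq2 (1.42.0) size factors, total counts, no count filter, added posterior variance, the whole-number table, other level scales and leaving out each library.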

Additional observations from a re-analysis of the deposited data

How the results depend on the processing

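Genes called different numbered 6388 of 13970 with TMM, 6384 with DESeq2 size factors, 6443 with total counts, 6928 of 32860 without a count filter and 5663 with posterior variance added, but 2155 of 9991 in the shallower whole-number table. The posterior SD of the gene counts was 0 for every receptor but *Tigit* (0.06, 0.04 and 0.03 in libraries 1, 2 and 3). Adding this variance was therefore no check on the receptor calls. Receptors called numbered 10, but 8 with total counts and 5 in the whole-number table, which lost *Pdcd1*, *Lag3*, *Cd226*, *Cd28* and *Btla*. In the whole-number table libraries 2 and 1, the highest and lowest for *Tigit* with TMM, changed places (chi-square per degree of freedom 9.57), and library 3 was the highest. The cause was not tested. Leaving out 1 library gave 2978 to 4765 genes and 6 to 7 receptors, lowest without library 3, with fewer samples in each. *Tigit* minus *Cd226* moved from 2.02 to 0.97 (CPM), 0.80 (whole-number CPM), 2.37 (coding transcripts) and 3.64 (full-frame *Cd226*), and lay at 1.99 to 2.06 with 1 library left out. *Cd96* minus *Cd226* reversed to 0.09, 1.12, 0.19 and 1.46 on the same scales, with -0.21 to -0.06. *Ctla4* minus *Cd28* moved to -1.69 in CPM, with -0.79 to -0.48. It stayed within its SD at -0.68 (whole-number CPM) and -0.37 (coding transcripts). *Icos* minus *Cd28* reversed to -0.06 in CPM and moved to 0.10 (whole-number CPM) and 1.14 (coding transcripts), with 0.74 to 1.00. A pseudocount of 1 TPM moved no pair by more than its SD. No paired analysis was possible because the labels give 1 group. Depth limits *Lag3* most, at 293 to 506 counts.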

Other observations

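The deposited whole-number counts of the receptors did not keep a fixed proportion to the estimated counts. Summed over the 3 libraries they were 13.1% of the estimated counts for *Cd28*, 14.7% for *Icos*, 23.3% to 28.5% for *Btla*, *Pdcd1*, *Tigit*, *Ctla4*, *Havcr2* and *Cd226*, 58.2% for *Cd96* and 76.3% for *Lag3*. The median over 8525 genes was 41.0%. On that table *Lag3* thus stood above *Havcr2*, with 300, 373 and 237 against 211, 299 and 155 whole-number counts in libraries 1, 2 and 3, while in estimated counts *Havcr2* stood above *Lag3* in each library. The highest receptor in whole-number CPM was *Cd96*, at 543, 600 and 614 against 470, 431 and 509 for *Tigit*. Levels of the receptors relative to each other therefore differ between the 2 tables, which rest on different annotations and alignment files, per the deposited descriptions.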
